A study of Homo sapiens with 4 samples.

Results

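The 10 genes described here encode proteases that cut the extracellular matrix or shed proteins from the cell surface, the inhibitors that hold them in check, and the receptor and activator of the plasminogen system. They were MMP14, MMP15, ADAM9, ADAM10, ADAM17, TIMP1, TIMP2, TIMP3, PLAU and PLAUR, chosen by symbol from a fixed list, and all 10 were found among the 16370 genes listed in the count files. Expression was measured by RNA sequencing of total RNA in 4 human hepatoma cultures, with 1 library per cell line. The HCC (hepatocellular carcinoma) group holds Hep3B and Huh7, both long-established lines from liver tumours. The HCSC group, labelled as stem cells of hepatic cancer, holds Hep3B-C and Huh7-C, stem-like lines derived from Hep3B and from Huh7. The labels name no allele, treatment, time or culture condition for any of the 4, and each group is 2 lines of different origin.

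Matrix metalloproteases (MMPs) are zinc enzymes that degrade collagens and other matrix proteins. MMP14 and MMP15 are anchored in the cell membrane. ADAMs are membrane-bound relatives that mainly cut other membrane proteins just outside the cell, a step called shedding that releases growth factors and cytokines. Tissue inhibitors of metalloproteases (TIMPs) bind the active site of these enzymes. PLAU (urokinase) converts plasminogen to plasmin and is held at the cell surface by its receptor, PLAUR. In liver, the balance of these enzymes and inhibitors is known for its part in fibrosis and in invasion of tumour cells.

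Total gene counts ranged from 2896418 in Hep3B to 4641927 in Hep3B-C. Levels are given as CPM, a gene's count scaled so that the counts of every library add up to the same total, or per length as RPKM, the CPM divided by the gene's length in kilobases. A count of 3 stood at 1.04 CPM in Hep3B and at 0.646 CPM in Hep3B-C, with 0.661 and 0.692 CPM in the Huh7 and Huh7-C libraries, and was taken as the limit of detection. All 8 hepatocyte markers examined had at least 10 counts in every library, with summed levels from 26490 to 62360 CPM. Summed levels of 8 fibroblast or stellate markers ranged from 10.8 to 45.2 CPM, those of 5 endothelial markers from 2.80 to 21.5 CPM and those of 5 leukocyte markers from 1.85 to 30.6 CPM. DCN, ACTA2, CDH5, TEK, PTPRC and CD3E had 0 counts in all 4 libraries, but other markers of the same lists were detected. In each library 1 or 2 of the fibroblast or stellate markers reached 10 counts. At most 1 endothelial and at most 1 leukocyte marker did so. Of 4 cholangiocyte markers, no more than 2 reached 10 counts in a library, and their summed level ranged from 1.98 to 74.2 CPM. The comparison of HCSC with the line of origin asks what differs between stem-like and parental cells. Genes were called up or down where the false discovery rate (FDR) of the Audic-Claverie test, which rests on the Poisson distribution, was at most 0.01 and the log2 fold-change (HCSC/HCC) was at least 1 in size. The test compares 2 libraries and not the conditions, since no culture was replicated. Intervals cover counting error only. Fewer cells with a transcript and less of it per cell cannot be told apart in bulk RNA.

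In Hep3B-C, 1 of the 10 genes was up-regulated (TIMP1) and 4 were down-regulated (ADAM9, ADAM10, ADAM17 and PLAUR). Over all 15480 genes of that pair, 13.2% were called up and 30.4% were called down (2043 and 4708 genes), a split that became 3056 and 3134 genes with TMM library sizes, while the members became 2 up and 3 down. In Huh7-C, 0 of the 9 genes listed were up-regulated and 1 was down-regulated (TIMP3), against 4.19% called up and 4.15% called down over all 14807 genes. PLAU was not listed in the Huh7 pair. None of the 10 was called in both pairs. Few genes were called in the Huh7 pair, and the share of all genes called in both pairs was not computed. Whether the lack of overlap sets the 10 apart from other genes was therefore not tested. When a biological coefficient of variation of 0.4 between cultures was assumed in place of counting error alone, TIMP1 was the single member still called. The fit over both lines, described below, gave a larger value of 0.514 with the parental line as block. The pairs were not tested at that value. The 8 members with 20 or more counts in the Hep3B pair had a median log2 fold-change of -0.77, where all genes with as many counts had one of -0.553. In the Huh7 pair the 8 such members had a median of 0.45, against 0.0595 for all such genes.

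**Figure D1:**
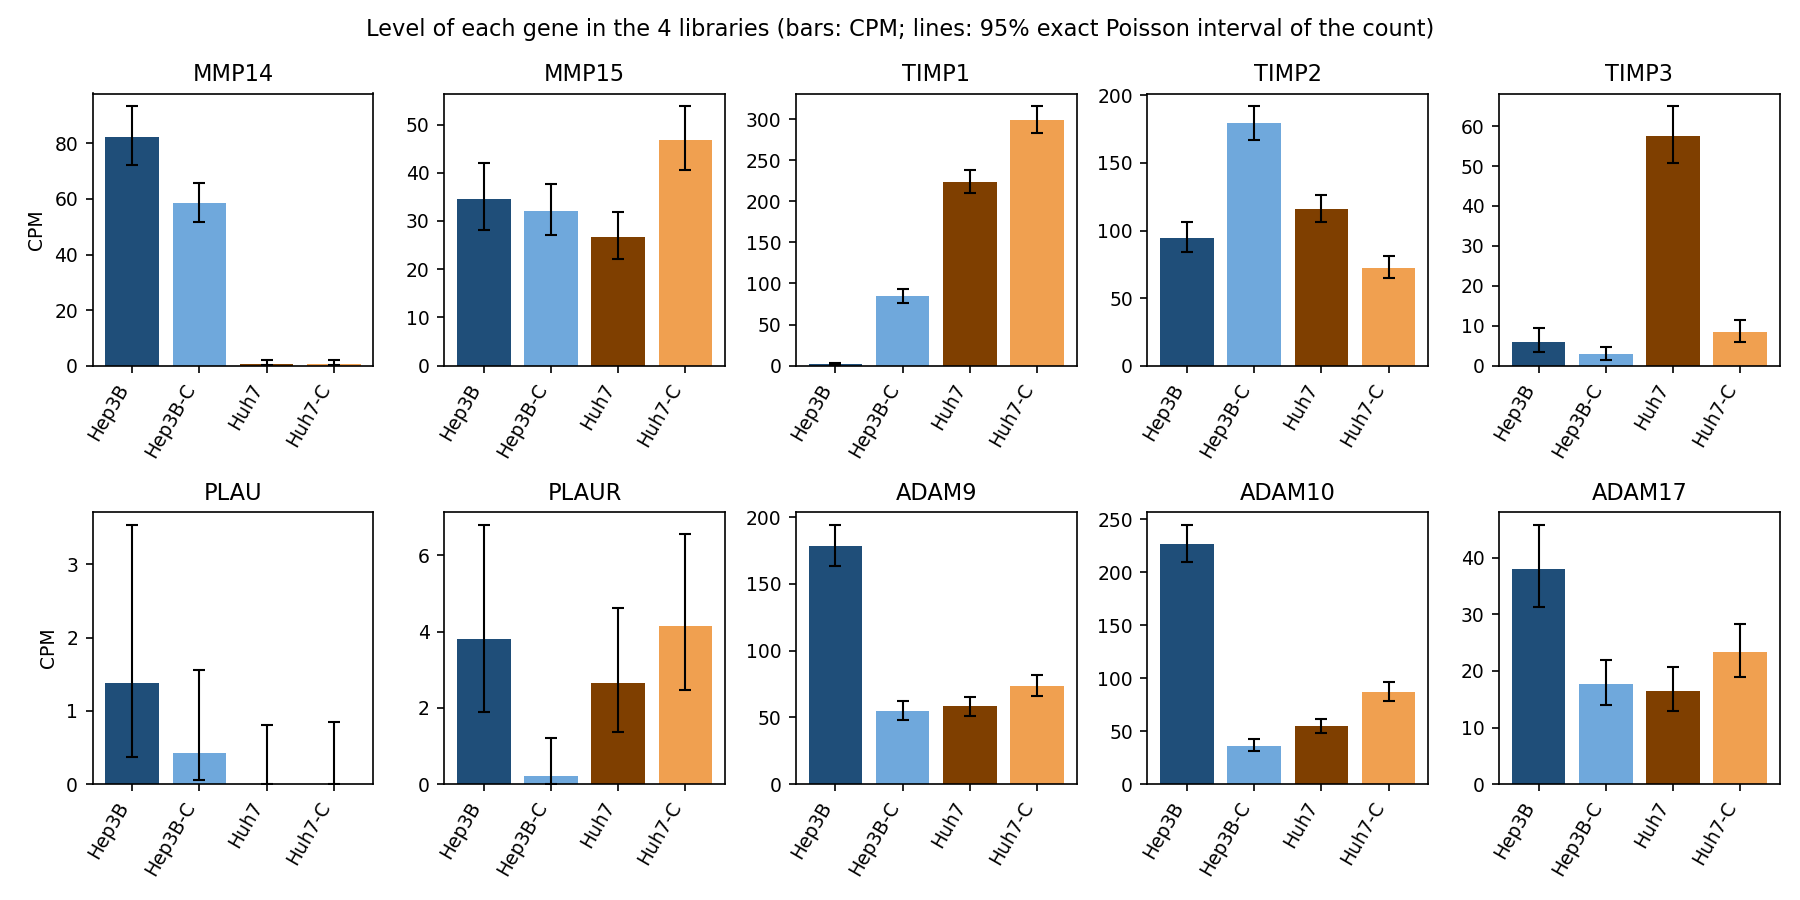
Level of each of the 10 genes (CPM, y axis, a separate linear scale in each panel) in Hep3B, Hep3B-C, Huh7 and Huh7-C, with bars for the single library of each line and lines for the 95% exact Poisson interval of its count. TIMP1 was at 1.38 CPM in Hep3B and 84.2 CPM in Hep3B-C, MMP14 was near 0 in both Huh7 libraries, and TIMP3 stood highest in Huh7.

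TIMP1, a secreted inhibitor of most MMPs, showed the widest range of the 10 genes. It had 4 counts in Hep3B (1.38 CPM), 391 in Hep3B-C (84.2 CPM), 1016 in Huh7 (223.9 CPM) and 1294 in Huh7-C (298.6 CPM). Hep3B was thus close to the limit of detection, and the counting intervals of the 4 lines did not overlap. TIMP1 rose in Hep3B-C with a log2 fold-change of 5.76 (SE 0.68, FDR 3.9e-74), and the CPM ratio of 61.0 had a 95% exact interval from 23.6 to 225. In Huh7-C the ratio was 1.33, with an interval from 1.23 to 1.45 (log2 fold-change 0.42, SE 0.06, FDR 7.7e-11), which did not reach the threshold of 1. By RPKM, TIMP1 was above 27.8% of listed genes in Hep3B and above 94.1% of them in Hep3B-C. It was above 97.8% in Huh7, and above 98.6% in Huh7-C.

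The level of TIMP1 in Hep3B-C was set against genes that separate the parental lines. TIMP1 was 1 of 43 genes with at least 50 CPM in Huh7 and at most 2 CPM in Hep3B. Of these, 6 (14.0%) reached 10 CPM in Hep3B-C, where the median of the 43 was 0.431 CPM. The 6 genes were AGR2 (127.1 CPM in Hep3B-C), TIMP1 (84.2 CPM), AKR1C1 (64.8 CPM), TLE3 (34.3 CPM), PCDH1 (12.1 CPM) and CSAG1 (12.1 CPM), named after their values were seen. Among 9909 genes with at least 50 counts in a library, the pattern of log2(CPM + 1) over the 4 libraries closest to that of TIMP1 by Euclidean distance was that of TLE3 (distance 0.933), followed by PCDH1 (1.09) and PYCR1 (1.68). TLE3, a transcriptional corepressor, had 2, 159, 355 and 386 counts in Hep3B, Hep3B-C, Huh7 and Huh7-C.

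TIMP2, an inhibitor that also takes part in the activation of pro-MMP2 by MMP14, was detected throughout. Its counts were 274 in Hep3B (94.6 CPM), 832 in Hep3B-C (179.2 CPM), 527 in Huh7 (116.1 CPM) and 314 in Huh7-C (72.5 CPM). Hep3B-C was highest and Huh7-C lowest, and the intervals of Hep3B and Huh7 overlapped. The log2 fold-change was 0.92 in Hep3B-C (SE 0.10, FDR 4.8e-21) and -0.68 in Huh7-C (SE 0.10, FDR 2.2e-10). Neither reached the threshold of 1 in size with total counts as library sizes. With TMM library sizes TIMP2 was called up in Hep3B-C at 1.40, and after removal of the GC and length trends described below it stood at 0.41. The difference between the pairs was 1.60 (Hep3B-C minus Huh7-C, counting interval from 1.32 to 1.88).

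TIMP3, an inhibitor that stays bound to the matrix and also blocks ADAM17, was highest in Huh7. It had 17 counts in Hep3B (5.87 CPM), 13 in Hep3B-C (2.80 CPM), 261 in Huh7 (57.5 CPM) and 36 in Huh7-C (8.31 CPM). The intervals of Huh7-C and Hep3B overlapped, as did those of Hep3B and Hep3B-C. TIMP3 fell in Huh7-C, with a log2 fold-change of -2.77 (SE 0.25, FDR 1.2e-39) and a level in Huh7 that was 6.93 times that in Huh7-C (exact interval 4.87 to 10.1). In Hep3B-C the log2 fold-change was -1.05 (SE 0.52, FDR 0.064), which did not pass the test. The sum of TIMP1 to TIMP3 per length was lowest in Hep3B (28.5 RPKM), followed by Hep3B-C (141.5 RPKM), Huh7 (286.7 RPKM) and Huh7-C (347.3 RPKM). Their composition differed as well. TIMP2 made up 90.9% of this sum in Hep3B and 34.7% in Hep3B-C, while TIMP1 made up 5.30% and 65.0% of it. In Huh7 and Huh7-C the share of TIMP1 was 85.3% and 93.9%, and that of TIMP3 was 3.66% and 0.436%. The GC and length trends described below were not removed from these sums and shares.

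TIMP1 overlaps SYN1 and TIMP3 overlaps SYN3, on the opposite strand in each case, and strand-specific counting was not stated. SYN1 had 18 counts in Huh7 and 27 in Huh7-C, and 0 in the other 2 libraries. SYN3 had 65 counts in Hep3B and 191 in Hep3B-C, but 0 in Huh7 and 1 in Huh7-C. SYN1 was thus seen in the libraries where TIMP1 was also highest, at far fewer counts. SYN3 was absent from Huh7, where TIMP3 was highest. The share of reads from the overlapping partner was not tested. The 250 bases before the start sites of TIMP1 and TIMP3, the members with the largest called change in each pair, are shown from RefSeq (GRCh38.p14), 5′ to 3′ in the direction of transcription. The promoter table matched 8 of the 10 genes, all but TIMP2 and ADAM9. Capitals mark GC boxes (GGGCGG, or CCGCCC on the other strand), AP-1 sites (TGANTCA) and TATA boxes (TATAAA), each searched on both strands.

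TIMP1 (chrX:47582186-47582435, plus strand): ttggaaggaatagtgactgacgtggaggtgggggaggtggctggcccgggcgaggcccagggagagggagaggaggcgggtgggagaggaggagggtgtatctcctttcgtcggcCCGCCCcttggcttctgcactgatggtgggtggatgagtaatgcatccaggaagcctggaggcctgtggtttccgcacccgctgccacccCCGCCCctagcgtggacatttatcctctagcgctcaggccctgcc

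TIMP3 (chr22:32801455-32801704, plus strand): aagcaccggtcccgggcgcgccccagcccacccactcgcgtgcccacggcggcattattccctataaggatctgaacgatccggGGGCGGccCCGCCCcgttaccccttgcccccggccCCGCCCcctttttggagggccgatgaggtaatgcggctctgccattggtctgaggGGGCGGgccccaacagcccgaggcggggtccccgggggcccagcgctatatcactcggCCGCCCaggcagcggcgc

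GC boxes occurred 2 times before TIMP1 and 5 times before TIMP3, which had 12 and 26 CpG dinucleotides. No TATAAA or TGANTCA was found in either window. Of 35116 RefSeq promoter windows of this length, 42.6% held a GC box, 10.7% held TATAAA and 6.57% held TGANTCA. These matches describe the sequence only.

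**Figure D2:**
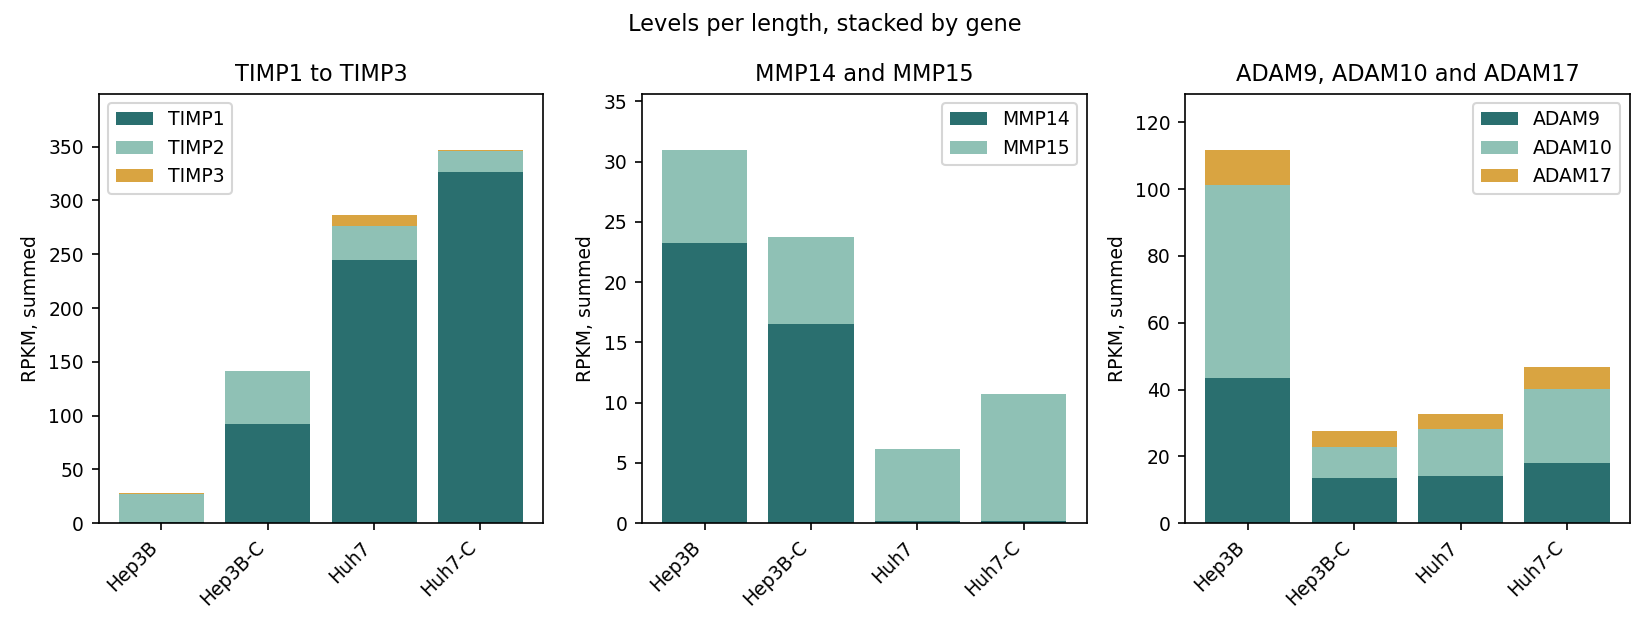
Levels per length (RPKM, y axis, linear) stacked by gene for TIMP1 to TIMP3, for MMP14 and MMP15, and for ADAM9, ADAM10 and ADAM17 in the single library of each line. TIMP1 is nearly absent from the Hep3B bar, MMP14 from both Huh7 bars, and the sum of the 3 ADAMs of 111.8 RPKM in Hep3B stands above the other libraries, which lie between 27.7 and 46.7 RPKM.

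MMP14 (MT1-MMP), a collagenase of the cell surface that activates pro-MMP2, was detected in the Hep3B pair and hardly in the Huh7 pair. It had 238 counts in Hep3B (82.2 CPM) and 271 in Hep3B-C (58.4 CPM), but 3 counts in Huh7 (0.661 CPM) and 3 in Huh7-C (0.692 CPM). Both Huh7 libraries were at the limit of detection. The log2 fold-change was -0.49 in Hep3B-C (SE 0.13, FDR 0.00027), short of the threshold and 0.06 above the median of all genes there, and it was 0.04 with DESeq2 size factors. With so few counts, the depth of the Huh7 pair could not show a change (log2 fold-change 0.07, SE 1.09). MMP14 was 1 of 85 genes with at least 50 CPM in Hep3B and at most 2 CPM in Huh7, of which 65 (76.5%) had at least 10 CPM in Hep3B-C and 1 (1.18%) in Huh7-C. The closest patterns over the 4 libraries were those of KIF1A (distance 0.121), TNFRSF14 (0.289) and SH3BP4 (0.306), which had no more than 1 count in either Huh7 library.

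MMP15 (MT2-MMP), a membrane-bound relative of MMP14, was detected in all lines. Its counts were 100 in Hep3B (34.5 CPM), 149 in Hep3B-C (32.1 CPM), 121 in Huh7 (26.7 CPM) and 203 in Huh7-C (46.8 CPM). In order of level every neighbouring pair of intervals overlapped, while Huh7-C, the highest, stood above Huh7, the lowest. The log2 fold-change was -0.11 in Hep3B-C (SE 0.19, FDR 0.64), and it turned to 0.38 with TMM library sizes and to -1.29 once the GC and length trends were taken out. In Huh7-C it was 0.81 (SE 0.17, FDR 5.6e-06), under the threshold. Per length, MMP14 made up 74.9% of the MMP14 and MMP15 sum in Hep3B and 69.5% in Hep3B-C, and 3.02% in Huh7 and 1.82% in Huh7-C. The ratio of the TIMP1 to TIMP3 sum to this sum was 0.918 in Hep3B and 5.96 in Hep3B-C, against 46.3 for Huh7 and 32.3 for Huh7-C. The counting interval of the Hep3B ratio ran from 0.781 to 1.08, and that of Hep3B-C from 5.30 to 6.71. TIMP1 supplied 5.30% of the inhibitor sum in Hep3B and between 65.0% and 93.9% of it in the other libraries. Outside Hep3B the ratio thus mainly set TIMP1 against the MMP14 and MMP15 sum. It compares RNA levels only, and whether these inhibitors act on MMP14 or MMP15 in the cells was not tested. The GC and length trends described below were not removed from these shares and ratios. With both removed, the log2 fold-change in Hep3B-C was 3.97 instead of 5.76 for TIMP1, and 0.41 instead of 0.92 for TIMP2. How far the shares and ratios of the Hep3B pair depend on these trends was not tested.

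All 3 ADAMs fell in Hep3B-C and had a positive log2 fold-change, short of the threshold, in Huh7-C. ADAM10, the main sheddase of Notch receptors and E-cadherin, had 656 counts in Hep3B (226.5 CPM), 169 in Hep3B-C (36.4 CPM), 248 in Huh7 (54.7 CPM) and 377 in Huh7-C (87.0 CPM). Hep3B was highest, and no neighbouring intervals overlapped. ADAM10 fell in Hep3B-C with a log2 fold-change of -2.63 (SE 0.12, FDR 5.7e-127), a level in Hep3B that was 6.22 times that in Hep3B-C (exact interval 5.25 to 7.41). In Huh7-C its log2 fold-change was 0.67 (SE 0.12, FDR 1e-07), under the threshold. ADAM9, a sheddase expressed in many tissues, had 516 counts in Hep3B (178.2 CPM), 255 in Hep3B-C (54.9 CPM), 264 in Huh7 (58.2 CPM) and 319 in Huh7-C (73.6 CPM). Hep3B stood apart above the others, and the intervals of Huh7 and Hep3B-C overlapped. ADAM9 fell in Hep3B-C, where its log2 fold-change was -1.70 (SE 0.11, FDR 2.1e-56). It was not called in Huh7-C (0.34, SE 0.12, FDR 0.018).

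ADAM17 (TACE), the sheddase of TNF and several EGFR ligands, was the lowest of the ADAMs. It had 110 counts in Hep3B (38.0 CPM), 82 in Hep3B-C (17.7 CPM), 75 in Huh7 (16.5 CPM) and 101 in Huh7-C (23.3 CPM). Hep3B was again highest, and the intervals of the other 3 lines overlapped between neighbours. ADAM17 fell in Hep3B-C with a log2 fold-change of -1.10 (SE 0.21, FDR 3.3e-07), close to the threshold, and it no longer passed with TMM library sizes (-0.62). In Huh7-C the log2 fold-change was 0.49 (SE 0.22, FDR 0.077). The ADAM10 to ADAM17 ratio per length was 5.40 in Hep3B and 1.87 in Hep3B-C, against 2.99 for Huh7 and 3.38 for Huh7-C. Differences between the pairs (Hep3B-C minus Huh7-C) were -3.30 for ADAM10, -2.03 for ADAM9 and -1.60 for ADAM17, with counting intervals that did not reach 0. ADAM17 overlaps IAH1, on the opposite strand, which had 2 counts in Hep3B and 13 in Hep3B-C, but 126 in Huh7 and 87 in Huh7-C.

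Promoter windows of ADAM10 and ADAM17, which fell together in Hep3B-C, are given in the same way.

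ADAM10 (chr15:58749708-58749957, minus strand): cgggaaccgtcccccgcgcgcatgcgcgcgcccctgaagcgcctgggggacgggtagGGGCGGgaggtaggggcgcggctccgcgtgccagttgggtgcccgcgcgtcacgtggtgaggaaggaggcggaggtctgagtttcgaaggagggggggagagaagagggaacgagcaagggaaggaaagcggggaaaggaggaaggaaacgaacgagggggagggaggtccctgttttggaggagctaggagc

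ADAM17 (chr2:9555831-9556080, minus strand): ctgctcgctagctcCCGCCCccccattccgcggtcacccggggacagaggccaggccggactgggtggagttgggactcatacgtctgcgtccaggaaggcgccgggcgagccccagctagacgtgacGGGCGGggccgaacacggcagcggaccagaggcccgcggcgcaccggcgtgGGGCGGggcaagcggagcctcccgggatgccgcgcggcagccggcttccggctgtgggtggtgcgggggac

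A GC box occurred 1 time before ADAM10 and 3 times before ADAM17. The windows had a GC content of 68.4% and 75.6%, against a median of 58% over all windows, with 25 and 31 CpG dinucleotides.

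**Figure D3:**
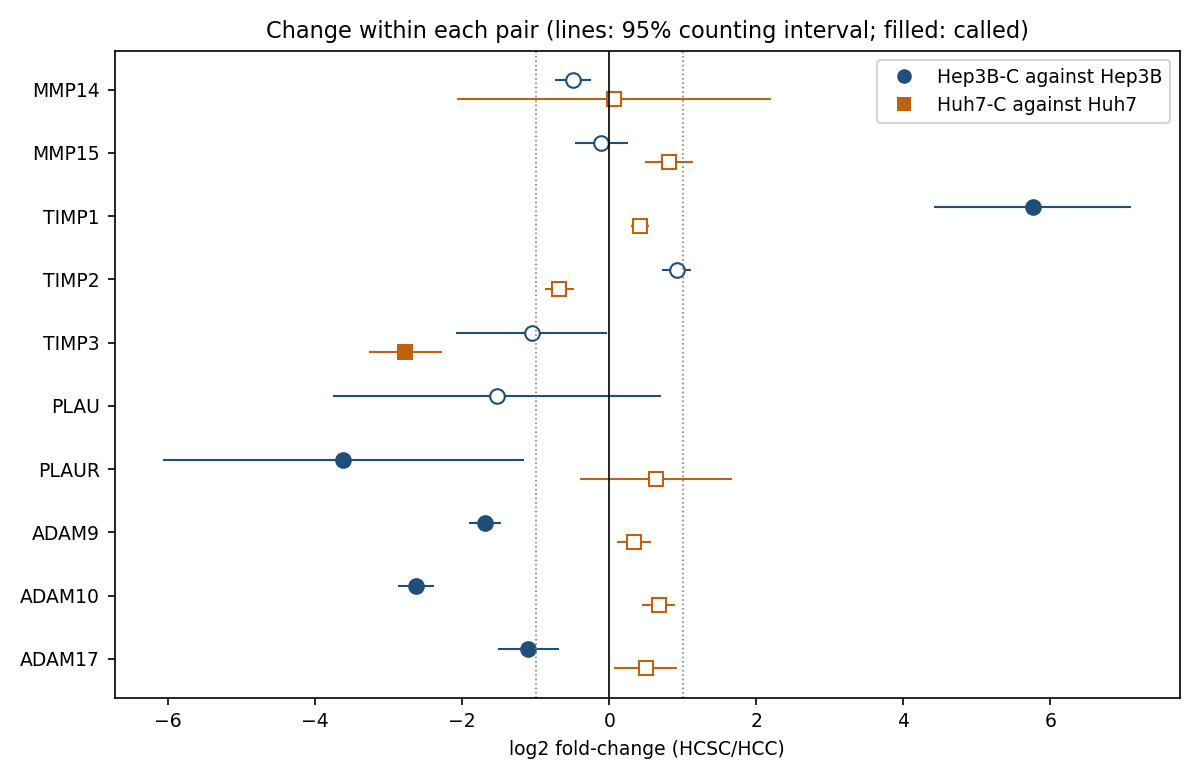
Log2 fold-change (HCSC/HCC, x axis) of each gene in the Hep3B pair (circles) and the Huh7 pair (squares), with lines for the 95% counting interval, filled symbols for called genes and dotted lines at -1 and 1. ADAM9, ADAM10 and ADAM17 lie below -1 in Hep3B-C and above 0 in Huh7-C, and TIMP1 lies at 5.76 in Hep3B-C.

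Gene composition moved with these changes. Across 11338 genes with at least 20 counts in the Hep3B pair, a higher log2 fold-change went with a higher GC content of the transcript (Spearman 0.631) and a shorter gene (Spearman -0.434), as a description across genes, which are not independent. Its median was -1.49 for genes under 45% GC and 0.831 for genes over 55% GC. ADAM9, ADAM10 and ADAM17 had GC contents of 39.4%, 41.6% and 43.8% and lengths from 3553 to 4098 bases, so they belonged to the former class. With both trends removed their log2 fold-changes in Hep3B-C were -0.61, -1.71 and -0.44, and ADAM10 was the one still called. The removal left the offset of the pair in place, as the median of all genes with at least 20 counts was then -0.546. ADAM9 and ADAM17 lay near that median. TIMP1, with 58.1% GC and 916 bases, stood at 3.97 and remained called. MMP14 and MMP15, at 58.9% and 66.0% GC, moved to -1.53 and -1.29 and were then called down. For Huh7-C the Spearman coefficients were -0.0589 with GC content and 0.315 with length, and TIMP3 stood at -3.03 with both trends removed. The part of these trends in the changes was not tested beyond these values, and with 1 library per line the library and the culture cannot be told apart.

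**Figure D4:**
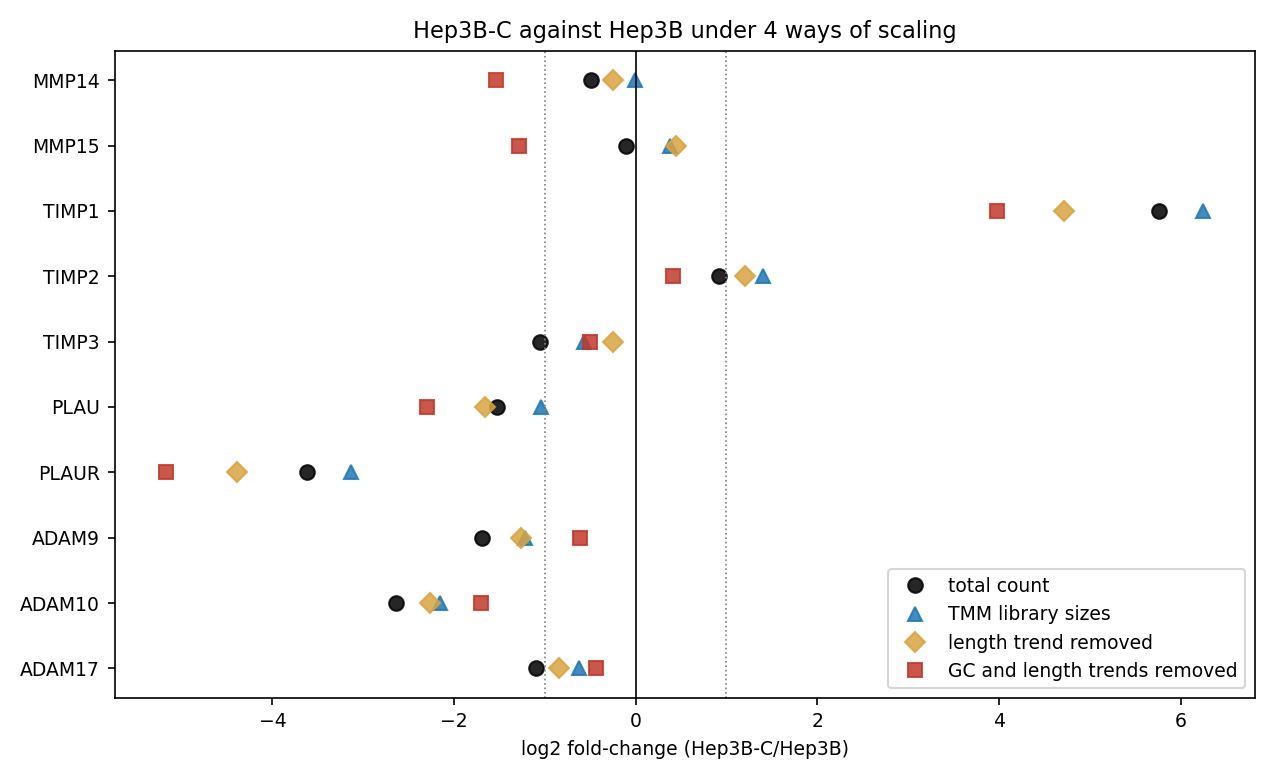
Log2 fold-change (Hep3B-C/Hep3B, x axis) of each gene with total counts as library sizes (circles), TMM library sizes (triangles), the length trend removed (diamonds) and the GC and length trends removed (squares), with dotted lines at -1 and 1. The called genes TIMP1, PLAUR and ADAM10 lie beyond the dotted lines in all 4, while MMP14 and MMP15 cross -1 after removal of both trends.

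The plasminogen activator and its receptor were near the limit of detection. PLAU had 4 counts in Hep3B, 2 in Hep3B-C and was absent from the Huh7 files, where the limit of 3 counts stood at 0.661 and 0.692 CPM. The two-sided 95% exact intervals drawn in the plot of levels reach 0.813 and 0.851 CPM there. The depth could not show a change in Hep3B-C (CPM ratio 0.312, exact interval 0.0282 to 2.18). PLAUR had 11 counts in Hep3B (3.80 CPM), 1 in Hep3B-C (0.215 CPM), 12 in Huh7 (2.65 CPM) and 18 in Huh7-C (4.15 CPM). Hep3B-C was lowest, and the intervals of the other 3 lines overlapped. PLAUR fell in Hep3B-C (FDR 0.00036), with a CPM ratio of 0.0567 and an exact interval from 0.00132 to 0.39 that rests on 1 count. In Huh7-C a difference was not detectable (log2 fold-change 0.63, SE 0.53, FDR 0.50). The window before PLAUR is shown because it alone among the 8 members matched held the letters TGANTCA. That match ran from 186 to 180 bases before the start, and the window had no GC box. The search took these letters exactly, so AP-1 sites that depart from them were not sought in any window.

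PLAUR (chr19:43670170-43670419, minus strand): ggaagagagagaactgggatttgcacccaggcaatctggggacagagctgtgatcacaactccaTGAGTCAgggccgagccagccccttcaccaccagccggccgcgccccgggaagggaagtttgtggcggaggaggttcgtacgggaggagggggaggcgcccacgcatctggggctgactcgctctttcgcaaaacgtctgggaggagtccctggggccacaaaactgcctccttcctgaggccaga

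HCSC and HCC were then compared over both lines with edgeR's quasi-likelihood test, with the parental line as a block. Of 11691 genes tested, 0.0342% were called up and 0.0428% were called down at an FDR of at most 0.05. Of the 9 members tested, 0 were called, 1 had an unadjusted p under 0.05, and 0 were called by DESeq2. Over all 11691 genes, 372 had an unadjusted p under 0.05 in the edgeR test, and 14 were called by DESeq2. PLAU did not pass the filter on low counts. The member with p under 0.05 was TIMP1, with a log2 fold-change of 2.95 in edgeR's quasi-likelihood test (unadjusted p 0.013, adjusted p 0.999), higher in the HCSC line of both pairs. TIMP3 had a log2 fold-change of -1.84 (p 0.058 in the same edgeR test), lower in the HCSC line of both pairs. By total counts as library sizes, ADAM9, ADAM10, ADAM17, TIMP2, MMP14, MMP15 and PLAUR had the opposite sign in the 2 pairs. With TMM library sizes MMP15 was above 0 in both (0.38 and 0.77), and MMP14 stood at -0.01 and 0.02.

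Genes that act with these enzymes were examined as fixed lists, with total counts as library sizes. The GC and length trends of the Hep3B pair were not removed in these lists. The part of those trends in the changes of related genes, or in their contrasts with the members, was not tested. Over the 9 lists, 10 of 92 listed genes were up in Hep3B-C (10.9%) and 26 were down (28.3%), beside 13.2% and 30.4% over all genes. With TMM library sizes, an alternative added after the data were seen, 16 were up and 16 were down. In Huh7-C, 3 of 81 were up (3.70%) and 6 were down (7.41%) with either, beside 4.19% and 4.15% over all genes. Called genes beyond the naming rule are named because they were few, after their values were seen. Medians of log2 fold-changes are over the genes of a list with at least 20 counts in the pair, and compare with -0.553 over all such genes in Hep3B-C and 0.0595 in Huh7-C. Of 21 other MMPs, 9 were listed in the Hep3B pair, where 0 were up and 3 were down. The 3 were MMP11, MMP17 and MMP19, with at most 40 counts in a library. The median was -1.60, and with TMM library sizes MMP11 was no longer called. In the Huh7 pair, 12 were listed, with 1 up, 0 down and a median of -0.28. That gene was MMP28, with 0 counts in Huh7 and 20 in Huh7-C. The gelatinase MMP2 was not listed in either pair, and MMP9 had 3 counts in Huh7 and 0 in the other libraries. The MMP with most counts outside the members, MMP24, had 7, 26, 74 and 57 counts in Hep3B, Hep3B-C, Huh7 and Huh7-C and was not called, though with TMM library sizes it was called up in Hep3B-C (1.62). MMP14 and MMP15 were therefore the members of the family with over 100 counts in any library.

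Other metalloprotease inhibitors were called in both directions in Hep3B-C. A2M, a plasma protein that traps proteases of all classes, had 1021 counts in Hep3B (352.5 CPM), 2922 in Hep3B-C (629.5 CPM), 16256 in Huh7 (3583 CPM) and 3525 in Huh7-C (813.4 CPM). It fell in Huh7-C (log2 fold-change -2.14, SE 0.03), as TIMP3 did, and was not called in Hep3B-C (0.84, SE 0.05), where it was called up with TMM library sizes (1.32). Of 5 listed genes of this group, 1 was up in Hep3B-C (TIMP4, 1 count in Hep3B and 32 in Hep3B-C) and 2 were down (RECK and SPOCK2). RECK, a membrane-anchored inhibitor of MMP14, had 28 counts in Hep3B and 8 in Hep3B-C, and SPOCK2, a matrix proteoglycan, had 139 and 65 (-1.77, SE 0.22). In the Huh7 pair, A2M was the 1 called of 4 listed. Medians were -0.47 in Hep3B-C and -1.31 in Huh7-C, over 4 and 2 genes.

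Of 10 other genes of the plasminogen system listed in the Hep3B pair, 2 were up (PLG and ENO1) and 1 was down (LRP1, log2 fold-change -1.03, SE 0.06, which stood at -0.54 with TMM library sizes and was then not called). PLG, the plasminogen that PLAU acts on, rose from 3 counts in Hep3B to 171 in Hep3B-C (CPM ratio 35.6, exact interval 11.97 to 174.2) and was not listed in the Huh7 pair. ENO1, a glycolytic enzyme that also serves as a plasminogen receptor, had 2714 counts in Hep3B (937 CPM) and 20699 in Hep3B-C (4459 CPM), a log2 fold-change of 2.25 (SE 0.03), and was not called in Huh7-C (0.25, SE 0.01). In the Huh7 pair, 0 of 9 listed genes were up and 2 were down. SERPINF2, the inhibitor of plasmin, had 1572 counts in Huh7 and 174 in Huh7-C (-3.11, SE 0.12). SERPINE2, an inhibitor of PLAU, fell from 371 to 79 counts (-2.16, SE 0.18). The list had a median of -0.23 in Hep3B-C, and of -0.16 in Huh7-C.

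Of 14 partners of the ADAMs and of MMP14 listed in the Hep3B pair, 3 were up (TSPAN17, TSPAN33 and BSG) and 2 were down (PCSK6 and RHBDF1). With TMM library sizes PCSK5 and PCSK7 were also called up and RHBDF1 was no longer called. TSPAN17 and TSPAN33 are tetraspanins that bind ADAM10 and aid its exit from the endoplasmic reticulum. The other tetraspanins of the list, TSPAN5, TSPAN10, TSPAN14 and TSPAN15, were not called in Hep3B-C (log2 fold-changes 0.76, -0.39, -0.12 and -0.07). TSPAN33 had 26 counts in Hep3B and 189 in Hep3B-C (2.16, SE 0.30), while ADAM10 itself fell. Of the same 14 genes in the Huh7 pair, 0 were up and 1 was down. FURIN, the convertase that removes the prodomain of MMP14 and the ADAMs, fell from 2675 counts in Huh7 (589.5 CPM) to 594 in Huh7-C (137.1 CPM), a log2 fold-change of -2.10 (SE 0.07). PCSK6, a related convertase, fell in Hep3B-C (-1.63, SE 0.10), and in Huh7-C its log2 fold-change of -0.91 (SE 0.15) did not reach the threshold. The list had a median of -0.09 in Hep3B-C, and of -0.11 in Huh7-C.

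EGFR ligands shed by ADAM10 or ADAM17 were down in Hep3B-C for 2 of 6 listed genes, where 30.4% of all genes were called down, and up for 0. AREG had 162 counts in Hep3B and 28 in Hep3B-C (-3.19, SE 0.29), and EREG had 412 and 93 (-2.82, SE 0.17). In the Huh7 pair, 0 of 3 listed ligands were called, AREG had 924 and 788 counts, and EREG had 208 and 295. Of 12 other ADAMs listed in the Hep3B pair, 1 was up and 2 were down (ADAM22, with 56 and 16 counts, and ADAM28, with 9 and 0). ADAM15, a sheddase of the same family, rose from 48 to 423 counts (2.45, SE 0.22), opposite in sign to ADAM9, ADAM10 and ADAM17. With TMM library sizes ADAM11 was called up as well. Of 7 listed in the Huh7 pair, 0 were up and 1 was down, namely ADAM19, which fell from 152 to 60 counts (-1.27, SE 0.22). Medians of the other ADAMs were -0.24 in Hep3B-C and -0.08 in Huh7-C.

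Among ADAMTS proteases, which are secreted relatives of the ADAMs, 0 of 13 listed genes were up and 7 were down in Hep3B-C. Of all genes, 30.4% were called down there. ADAMTS9 had 235 counts in Hep3B and 55 in Hep3B-C (-2.77, SE 0.22), and the other 6 had at most 25 counts in a library. With TMM library sizes 5 were down, as ADAMTS1 and ADAMTS10 were no longer called. The median over 5 genes was -2.77. In the Huh7 pair, 1 of 9 was up and 0 were down, namely ADAMTS2 with 6 and 45 counts. Of 8 membrane serine proteases, substrates and inhibitors listed in each pair, 1 was up (PRSS8) and 1 was down (HGFAC) in Hep3B-C, and 1 was up and 0 were down in Huh7-C. The latter was HGF, the ligand of MET, with 1 count in Huh7 and 152 in Huh7-C (CPM ratio 159.1, exact interval 28.1 to 6327). SPINT1, an inhibitor of the HGF activator, had 597, 510, 7 and 0 counts in Hep3B, Hep3B-C, Huh7 and Huh7-C, while its relative SPINT2 had 0, 2, 304 and 177, and neither was called. The protease TMPRSS6 had 194 counts in both Hep3B and Hep3B-C, and 10 and 3 in Huh7 and Huh7-C. With TMM library sizes HGFAC was no longer called. The list had a median of -0.68 in Hep3B-C, and of -0.11 in Huh7-C. Of 15 cathepsins and cystatins listed in each pair, 2 were up (CTSA and CST3) and 6 were down in Hep3B-C. CST3 (cystatin C), an inhibitor of cathepsins, had 171 and 821 counts (1.58, SE 0.12), and CSTB, another such inhibitor, had 335 and 211 (-1.35, SE 0.13). With TMM library sizes 3 were up and 2 were down (CTSK and CTSL2), and CSTB, at -0.86, was not called. In Huh7-C 0 were up and 1 was down, and CTSB, at 2637 and 1418 counts, was not called (-0.83, SE 0.05). Medians were -0.46 in Hep3B-C and -0.48 in Huh7-C. The gene down in Huh7-C, CTSZ, a lysosomal carboxypeptidase, was the one gene of these lists called alike in both pairs with at least 50 counts in each (-1.03, SE 0.08, and -1.05, SE 0.08). With TMM library sizes it stood at -0.54 in Hep3B-C and was called in Huh7-C only.

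**Figure D5:**
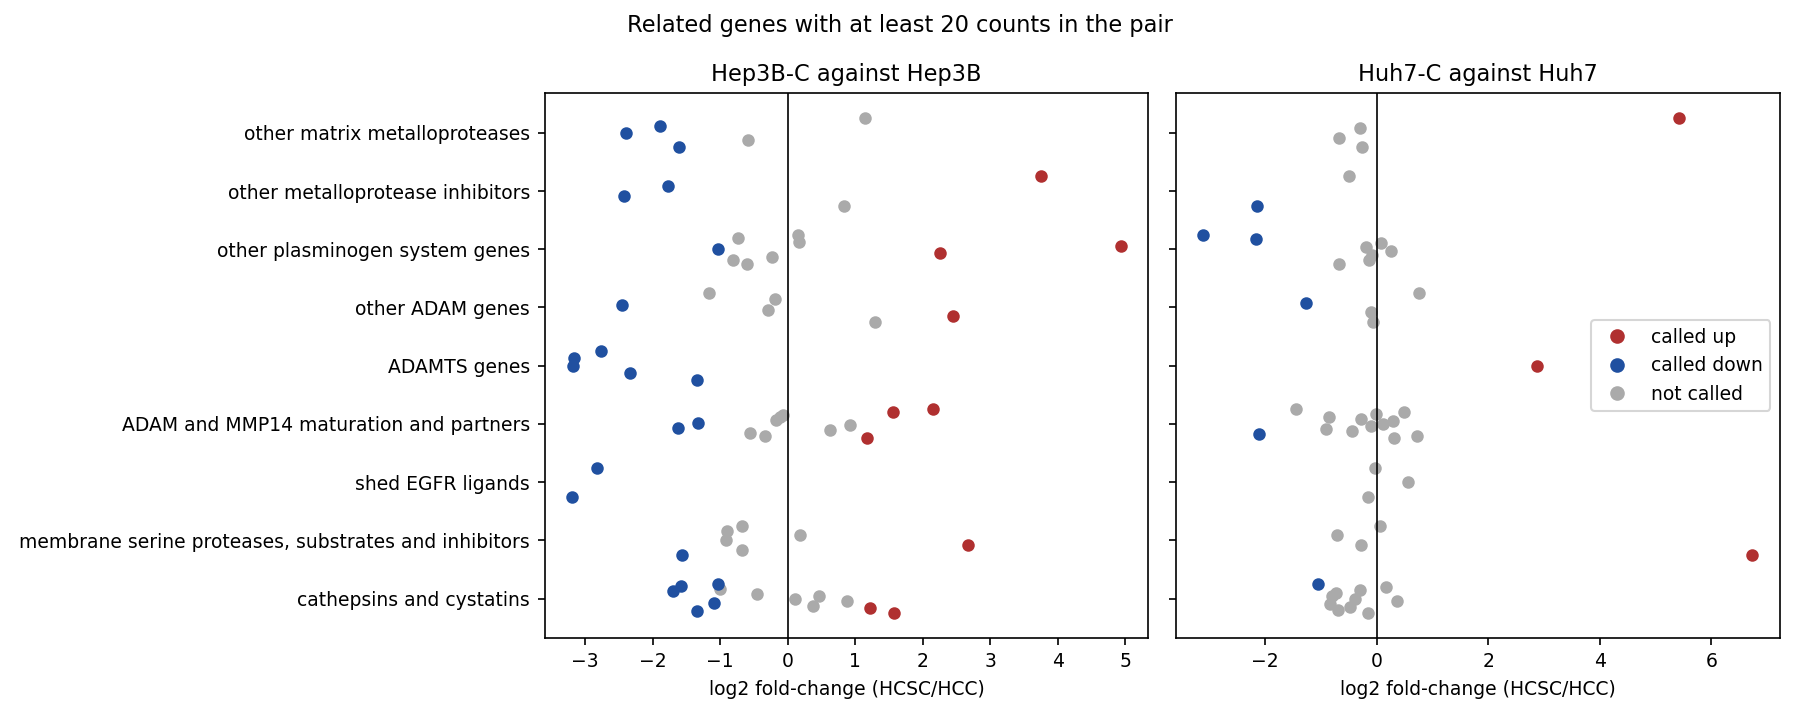
Log2 fold-change (HCSC/HCC, x axis) of related genes with at least 20 counts in the pair, by list (y axis), in Hep3B-C against Hep3B and Huh7-C against Huh7, with red points for genes called up, blue for genes called down and grey for those not called. In Hep3B-C the ADAMTS points all lie below 0, and in Huh7-C most points lie within 1 of 0.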

How the data were processed

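RNA from 4 hepatoma cultures was sequenced, 1 library each. Per the study's methods, adapters and poor reads were removed and the rest aligned with NextGENe (version not given in the sources used here) to an NCBI build older than GRCh38. The authors deposited raw counts of reads for each gene with gene lengths. Handling of reads with several matches was not stated. Each pair's files listed the genes with at least 1 count in the pair, and others were taken as 0 in the joint fit.

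CPM and RPKM were computed from these counts and lengths. Pairs were tested by the Audic-Claverie test (smaller tail doubled, Benjamini-Hochberg over all genes of the pair), with 0.5 added to counts for fold-changes, Poisson SEs and 95% intervals. HCSC and HCC were compared with edgeR 4.0.16 (quasi-likelihood, TMM, filterByExpr), with the parental line as block since each HCSC line was derived from its parent. Deviations from group means correlated at 0.584 within a parental line. DESeq2 1.42.0 was an alternative. Nothing says that libraries came from replicate cultures, so p-values cover counting error or the spread between these samples. Tests were checked on simulated data. GC content came from GENCODE 29 (97.9% of genes), overlaps too, and trends were lowess fits with a span of 0.3.

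The members, gene lists and tests were chosen with earlier results of these data known. All 10 members were named. Of each list, named were genes called alike in both pairs with at least 50 counts, and the 2 with the largest change in each pair among genes with at least 50 counts in a library. Likeness was sought for the 2 members with the widest range. A gene of the plasminogen list is not reported here and was left out of its counts and median.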

Additional observations from a re-analysis of the deposited data

Results flagged for a closer look

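TIMP2 and ADAM10 passed the FDR of 0.01 in both pairs, with opposite directions. The share of all genes that did so is not given here. With a biological coefficient of variation of 0.2 assumed in edgeR's exact test, neither gene passed in both pairs. The FDR of TIMP2 was then 0.071 in Hep3B-C and 0.63 in Huh7-C, and that of ADAM10 was 1.5e-07 and 0.65. The log2 fold-change of the Hep3B pair minus that of the Huh7 pair was 1.60 for TIMP2 and -3.30 for ADAM10. With 1 library per line, these differences were not tested against replicates. After removal of the GC and length trends, TIMP2 had a log2 fold-change of 0.41 in the Hep3B pair against -0.75 in the other, and ADAM10 had -1.71 against 0.56.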

How the results depend on the processing

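For the pairs, 9 alternatives were run. In Hep3B-C the median of all genes with at least 20 counts moved from -0.553 to -0.0701 with TMM library sizes and to -0.0241 with DESeq2 size factors. It stayed at -0.546 with the GC and length trends removed. TIMP1 and ADAM10 kept their direction in Hep3B-C under all 9 alternatives. The number of members up in Hep3B-C was 2 instead of 1 with TMM library sizes, with DESeq2 size factors and with the length trend removed, as TIMP2 joined TIMP1. With an assumed biological coefficient of variation (BCV) of 0.4, 0 members were down in Hep3B-C and 0 in Huh7-C, and TIMP1 was still up in Hep3B-C. At that setting the FDR of ADAM10 was 0.054 and that of TIMP3 in Huh7-C was 0.32. ADAM17 was no longer called in 6 alternatives. With both trends removed, 4 members were still down in Hep3B-C, but these were PLAUR, ADAM10, MMP14 and MMP15. Directions that turned in Hep3B-C were those of MMP15 (0.38 with TMM, 0.42 with DESeq2 size factors, 0.44 with the length trend removed) and MMP14 (0.0357 with DESeq2 size factors). In Huh7-C, MMP14, with 3 counts in each library, turned to -0.0145 with both trends removed. Over all genes, calls up and down in Hep3B-C were 3056 and 3134 with TMM, and 3164 and 3015 with DESeq2 size factors. They were 62 and 169 at a BCV of 0.4, and 599 and 3975 with both trends removed. The main numbers were 2043 and 4708. The related lists were run with TMM after the data were seen. Of their genes named by rule, ADAM19 turned to 0.20 in Hep3B-C. Genes of these lists not named by rule turned as well. Among them were CPB2 (-0.23 to 0.25), RHBDF2 (-0.17 to 0.32) and TSPAN14 (-0.12 to 0.37). Calls up and down over all genes in Huh7-C were 97 and 161 at a BCV of 0.2 and 13 and 12 at 0.4, against 620 and 614.

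In the comparison over both lines, 0 members were called under any alternative, DESeq2 included. Without the replicate block, TIMP1 had a log2 fold-change of 0.77 and TIMP3 one of -2.48, and the BCV was 0.754 against 0.514 with the block. MMP14 stood at 0.0005 with no filter on low counts. Leaving out each library in turn was possible without the block only, and the lone sample of a group was then assumed to vary like the other group. Ranges were -0.27 to 7.35 for TIMP1 (-0.22 without Hep3B), -3.35 to 0.20 for TIMP3, -0.48 to 1.02 for TIMP2, -5.63 to 5.59 for MMP14 (0.89 without Huh7-C), -3.45 to 0.46 for PLAUR, -1.16 to 0.19 for ADAM9, -1.60 to 0.20 for ADAM10 and -0.57 to 0.36 for ADAM17, and the groups then held unequal sets of lines. Depth limits PLAU, PLAUR, and MMP14 in the Huh7 lines, each with under 20 counts there.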
